A study of Mus musculus with 8 samples.

Results

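The genes described here are 8 neural genes, Gap43, Pax6, Nes, Tubb3, Map2, Ncam1, Dcx and Fabp7, measured in undifferentiated and briefly LIF-deprived mouse embryonic stem (ES) cells. All probe sets annotated to 1 of these symbols were taken, which gave 8 of the 18193 genes that the array names singly, and 26 of its 45037 probe sets without controls: 7 for Ncam1, 5 for Pax6, 4 each for Map2 and Dcx, 3 for Nes, and 1 each for Gap43, Tubb3 and Fabp7. The study set Rex-1 knockout (Rex-1-/-, KO) ES cells against wild-type J1 ES cells, each without and with leukemia inhibitory factor (LIF), the cytokine that holds mouse ES cells in self-renewal, and used 8 single-colour Affymetrix arrays of total RNA. Rex-1, encoded by Zfp42, is a zinc-finger protein related to the transcription factor YY1, and its messenger RNA is a marker of undifferentiated ES cells. The 4 groups, with 2 arrays each, were KO cells without LIF, KO cells with LIF, J1 cells without LIF and J1 cells with LIF. All were grown as monolayers on gelatin in serum medium, and one text shared by the 8 arrays gives 12 hours without LIF. How many KO clones were used and how the deletion was made are not given in the sources used here.

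The design text speaks of 2 biological replicates for each condition, but the titles of each pair differ only by a letter r whose meaning is not given. The p-values therefore reflect array-to-array spread within a group, which may be technical. The array whose title lacks the letter is called the first array below, and the other the second. The growth text of the KO arrays titled as lacking LIF mentions LIF as an addition, whereas their titles and treatment text say it was absent, and the titles were followed. Zfp42 itself had a log2 intensity of 14.03 to 14.14 on the KO arrays, against 14.15 to 14.51 on the J1 arrays, a difference of -0.21 (SE 0.16) with a limma adjusted p of 0.985. The position of its probes relative to the deletion is not given, so this probe set does not check the labels, and KO below means the arrays labelled knockout. Pou5f1, the gene of the pluripotency factor Oct4, had a log2 intensity of 13.2 to 13.6 on all 8 arrays. Other pluripotency markers, some of them lower without LIF, are given at the end of the results. The second array of KO cells with LIF stood apart, with a median intensity of 143.5 against 114.2 to 127.9 on the other arrays.

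These genes mark successive steps of neural development. Pax6 is a paired-box and homeobox transcription factor of neural progenitors and the eye. Nes (nestin, an intermediate filament) and Fabp7 (brain lipid-binding protein) mark neural stem cells and radial glia. Tubb3 (a neuronal beta-tubulin), Map2 (a dendritic microtubule-associated protein) and Dcx (doublecortin, a microtubule-associated protein of migrating neuroblasts) belong to the neuronal cytoskeleton. Ncam1 is an immunoglobulin-family adhesion molecule, and Gap43 is a membrane-associated protein of growth cones. Mouse ES cells that lose LIF and other differentiation blocks can turn to a neural fate, and pluripotent cells hold many of these genes at low levels.

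Promoter sequence is shown for 3 genes because Rex-1 is a YY1 relative: Pax6, whose probe sets were all lower in KO cells on average, Tubb3, which differed little between the lines, and Dcx, whose probe sets were all near background. The sequences are the 250 bases before each annotated start, from RefSeq on assembly GRCm38.p6, written 5′ to 3′ on the gene's strand with CpG dinucleotides in capitals. Pax6 has 2 starts in the table, and the Dcx sequence is the first of 2 overlapping windows.
Pax6, first start (chr2:105668646-105668895, plus strand): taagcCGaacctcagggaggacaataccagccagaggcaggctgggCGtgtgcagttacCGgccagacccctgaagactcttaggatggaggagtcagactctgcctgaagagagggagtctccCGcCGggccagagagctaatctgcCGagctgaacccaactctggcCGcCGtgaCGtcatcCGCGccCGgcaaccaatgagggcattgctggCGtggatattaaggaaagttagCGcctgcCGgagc
Pax6, second start (chr2:105682213-105682462, plus strand): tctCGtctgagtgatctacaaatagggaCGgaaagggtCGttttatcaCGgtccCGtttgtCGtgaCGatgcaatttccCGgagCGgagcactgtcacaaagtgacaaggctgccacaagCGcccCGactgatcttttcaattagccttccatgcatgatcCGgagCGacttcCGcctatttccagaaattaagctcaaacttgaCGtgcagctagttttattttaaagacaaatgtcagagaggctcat
Tubb3 (chr8:123411303-123411552, plus strand): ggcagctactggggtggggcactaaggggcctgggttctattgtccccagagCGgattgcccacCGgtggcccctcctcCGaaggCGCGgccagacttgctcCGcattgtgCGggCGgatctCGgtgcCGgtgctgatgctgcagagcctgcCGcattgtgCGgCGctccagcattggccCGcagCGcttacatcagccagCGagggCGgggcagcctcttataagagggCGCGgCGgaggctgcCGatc
Dcx (chrX:143933220-143933469, minus strand): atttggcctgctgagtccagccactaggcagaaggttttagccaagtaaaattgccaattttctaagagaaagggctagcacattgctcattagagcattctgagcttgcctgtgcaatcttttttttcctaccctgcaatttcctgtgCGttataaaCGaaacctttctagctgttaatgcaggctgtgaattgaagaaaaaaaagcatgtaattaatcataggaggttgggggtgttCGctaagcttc
The 250 bases hold 15 CpG at each Pax6 start, 21 at Tubb3 and 3 at Dcx, against a median of 6 over 32851 promoter windows. Map2 had 34, Nes 15 and Fabp7 4, and the second Dcx window had 3. The letters CCATNTT, the core of the YY1 site, searched on both strands in windows of 300 bases that include 50 bases after the start, occurred in 0 of the 8 windows of 6 member genes. They occurred in 16.1% of all windows. Gap43 and Ncam1 had no window, so their promoters were not searched. This says only that those letters are not in these windows, and the array data do not show binding.

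Values are log2 intensities per probe set, and a difference of 1 is a doubling. Levels are compared only within a probe set, because probe sets differ in how brightly they report. All 26 member probe sets passed the filter of log2 4 or more on at least 2 arrays, but 16 of them had a mean log2 under 6 and are called near background here, including every probe set of Dcx and Fabp7. The other 10 belong to Gap43, Pax6, Nes, Tubb3, Map2 and Ncam1. Between the 2 arrays of a group, the median absolute difference over all tested probe sets was 1.23 below log2 6, 0.58 from 6 to 8, 0.30 from 8 to 10 and 0.22 above that. In these bulk cultures, fewer cells of a type and less RNA per cell cannot be told apart.

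**Figure D1:**
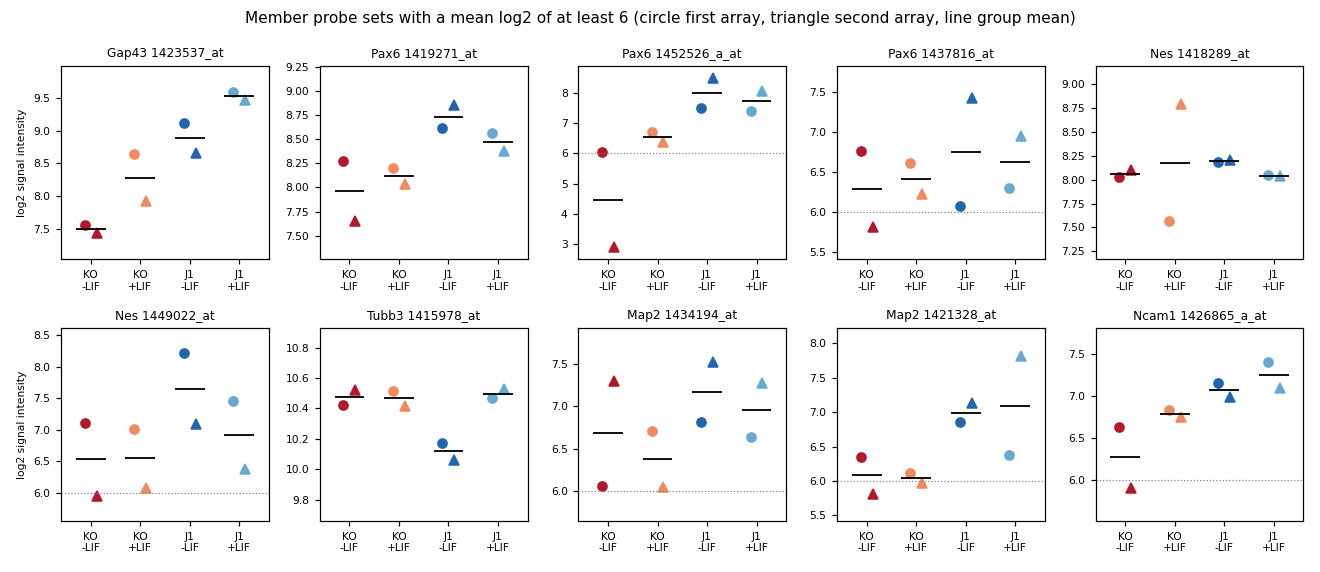
Log2 intensity of the 10 member probe sets with a mean of at least 6, per array, in KO cells without LIF, KO cells with LIF, J1 cells without LIF and J1 cells with LIF (2 arrays each). Gap43 was lower on each of the 4 KO arrays, at 7.43 to 8.64, than on each of the 4 J1 arrays, at 8.65 to 9.59, whereas Tubb3 stayed between 10.06 and 10.53 on all 8.

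Gap43 had the clearest separation of the 4 groups. Its log2 intensity was 7.56 and 7.43 in KO cells without LIF, 8.64 and 7.92 in KO cells with LIF, 9.12 and 8.65 in J1 cells without LIF, and 9.59 and 9.47 in J1 cells with LIF. No array of one group overlapped those of another, and the groups stood in that order, though the higher KO array with LIF and the lower J1 array without LIF differed by little. On the deposited linear scale this was 172.4 to 398.8 intensity units on KO arrays, against 402.6 to 768.4 on J1 arrays. Gap43 averaged 7.89 ± 0.54 in KO cells and 9.21 ± 0.42 in J1 cells (SD, n = 4 arrays each, both LIF conditions). The averaged genotype difference was -1.32 (SE 0.23, 95% interval -1.90 to -0.74), or 2.50-fold lower in KO cells, but its limma adjusted p over 43439 probe sets was 0.652, so it was not called. The difference was -1.25 (SE 0.33) with LIF, adjusted p 0.838 by limma, and -1.39 (SE 0.33) without LIF, adjusted p 1 by limma. It was -1.25 between the first arrays and -1.39 between the second arrays, and it lay between -1.50 and -1.14 as each array in turn was left out. Keeping only probe sets that averaged at least log2 8 and fitting the array letter as a block, a combination chosen after seeing the data, gave Gap43 an adjusted p of 0.023 by limma, against 0.188 with the same restriction and no block.

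Withdrawal of LIF went with lower Gap43 signal in both lines, with no overlap inside either. The LIF difference, without minus with, was -0.79 (SE 0.33) in KO cells and -0.64 (SE 0.33) in J1 cells, and it averaged -0.71 (SE 0.23, 95% interval -1.29 to -0.14), adjusted p 1 by limma. The interaction was -0.14 with an interval of -1.30 to 1.01, which holds differences of 1 log2 unit between the lines in either direction. Some fibroblast or feeder markers moved with part of this pattern, and others did not. The mean log2 of 11 such markers was 6.37 to 6.86 on KO arrays. It was 7.40 and 7.49 on the first J1 arrays, and 6.32 and 6.45 on the second J1 arrays. In both LIF conditions, Tagln, Acta2, Col1a1 and Col1a2 were higher on the first J1 array than on the second. Fap, Lum and Dcn went the other way. Dcn, for example, read 4.63 and 5.43 on the first J1 arrays, against 6.72 and 6.77 on the second. Fap, Lum and Dcn were near background, however, with mean log2 values of 5.73, 5.89 and 5.86. Those of Tagln, Acta2, Col1a1 and Col1a2 were 8.59, 10.61, 6.64 and 8.07. Without the first array of J1 cells without LIF the Gap43 genotype difference was -1.20, and without the first array of J1 cells with LIF it was -1.29. Between the second arrays alone, where the marker means were 6.45 and 6.37 in KO cells and 6.45 and 6.32 in J1 cells, the Gap43 difference was -1.39. The part of these markers in the Gap43 values was not tested.

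By the likeness rule, the root mean square difference of centred log2 profiles over 8 arrays, the 3 probe sets of other genes closest to Gap43 among 23804 were those of Fxyd6 at 0.33, Dpys at 0.33 and 4930552P12Rik at 0.38. Fxyd6 encodes a regulator of the sodium pump and Dpys a dihydropyrimidinase of pyrimidine breakdown. Fxyd6 had a log2 intensity of at most 7.97 on the KO arrays, against at least 8.73 on the J1 arrays. The likeness is a description over these 8 arrays. Fxyd6 was picked for it, so its gap between the lines is not separate evidence.

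Pax6 was lower on every KO array than on every J1 array at 3 of its 5 probe sets, with sizes that differed widely. The brightest, 1419271_at, read 8.28 and 7.66 in KO cells without LIF, 8.20 and 8.04 in KO cells with LIF, 8.61 and 8.85 in J1 cells without LIF, and 8.57 and 8.38 in J1 cells with LIF. All 4 KO arrays lay below all 4 J1 arrays, and the LIF conditions overlapped. The genotype difference was -0.56 (SE 0.21, 95% interval -1.07 to -0.04), with a limma adjusted p of 0.931. The second, 1452526_a_at, read 6.04 and 2.90 in KO cells without LIF, 6.69 and 6.38 in KO cells with LIF, 7.48 and 8.46 in J1 cells without LIF, and 7.38 and 8.06 in J1 cells with LIF. Its difference of -2.34 (SE 0.72), adjusted p 0.892 by limma, leaned on 1 array: it was -1.56 without the second array of KO cells without LIF. It was -1.07 between first arrays and -3.62 between second arrays, and -1.39 after 50 intensity units were added before the log. The third, 1456342_at, was near background at 3.48 to 5.82 on KO arrays, against 6.03 to 6.88 on J1 arrays. Its difference of -1.64 (SE 0.52), adjusted p 0.898 by limma, was -1.05 without the first array of KO cells with LIF and -0.78 with 50 added.

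The other Pax6 probe sets did not separate the lines. At 1437816_at the difference was -0.34 (SE 0.41), but 0.51 between first arrays and -1.18 between second arrays. At 1425960_s_at, near background at 2.46 to 5.80 on all arrays, it was -0.60 (SE 0.73). So the 5 probe sets of Pax6 shared a sign for the averaged genotype difference and ranged in size from -2.34 to -0.34. That sign was not stable at these last probe sets. Without the second array of J1 cells without LIF, 1437816_at gave 0.005. Without the second array of J1 cells with LIF, 1425960_s_at gave 0.029. For the brightest probe set, LIF withdrawal gave 0.06 (SE 0.21), a value that changed sign when an array was left out. The probe sets of other genes closest to it among 23802 were those of Sgms1 at 0.10, Agpat4 at 0.11 and Smim22 at 0.11. Sgms1 encodes a sphingomyelin synthase and Agpat4 an enzyme of phospholipid synthesis. Sgms1 read 8.30 to 8.97 on KO arrays, against 9.12 to 9.50 on J1 arrays. It was picked for its likeness to this Pax6 probe set, so that gap is not separate evidence.

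The progenitor filament gene Nes gave no single answer. Its brightest probe set, 1418289_at, read 8.02 and 8.11 in KO cells without LIF, 7.57 and 8.79 in KO cells with LIF, 8.19 and 8.21 in J1 cells without LIF, and 8.05 and 8.04 in J1 cells with LIF. The arrays of KO cells with LIF were the lowest and the highest of all 8, so the lines overlapped. The genotype difference was 0.00 (SE 0.30) with an interval of -0.73 to 0.73. A second probe set, 1449022_at, read 7.11 and 5.95 in KO cells without LIF, 7.01 and 6.08 in KO cells with LIF, 8.21 and 7.09 in J1 cells without LIF, and 7.46 and 6.38 in J1 cells with LIF. Its genotype difference was -0.75 (SE 0.47), adjusted p 0.985 by limma. The second array was lower than the first in all 4 groups there, by -1.16, -0.93, -1.12 and -1.08 in the order just given, while the median over all tested probe sets lay between 0.05 and 0.14. The means of the fibroblast, trophoblast, neuronal cytoskeleton and neural repressor lists were also lower on the second array in all 4 groups. Those of the proneural, extraembryonic endoderm and pluripotency lists were higher in all 4. The part of such shifts in the Nes 1449022_at values was not tested. The genotype difference of Nes 1449022_at was -0.78 between first arrays and -0.72 between second arrays. With the array letter fitted as a block, its limma p was 0.00295 unadjusted and 0.578 adjusted. Without the block these were 0.168 and 0.985. It was not called in either fit, and the letter is not known to pair the arrays. The third probe set, 1453997_a_at, was near background, with -0.39 (SE 0.26).

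Fabp7, the other radial glia gene, had 1 probe set, near background. It read 2.48 and 3.23 in KO cells without LIF, 4.76 and 4.06 in KO cells with LIF, 5.85 and 2.94 in J1 cells without LIF, and 4.32 and 5.79 in J1 cells with LIF. The lines overlapped, and the difference was -1.09 (SE 0.73, 95% interval -2.91 to 0.73), which bounds the size poorly.

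Tubb3, measured by 1 bright probe set, differed little between the lines. It read 10.42 and 10.52 in KO cells without LIF, 10.52 and 10.41 in KO cells with LIF, 10.17 and 10.06 in J1 cells without LIF, and 10.47 and 10.53 in J1 cells with LIF. The J1 arrays without LIF were the lowest of all 8, and the other 6 arrays lay within a narrow band. The genotype difference was 0.16 (SE 0.15, 95% interval -0.21 to 0.53). The LIF difference was 0.01 (SE 0.21) in KO cells and -0.38 (SE 0.21) in J1 cells. The interaction was 0.39 (SE 0.30, interval -0.36 to 1.13), adjusted p 1 by limma, so the lines were not shown to differ in their response to LIF.

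Of the 4 probe sets of Map2, the 2 with a mean of at least 6 were lower in KO cells on average and the 2 near background were higher. Map2 1421328_at read 6.34 and 5.82 in KO cells without LIF, 6.12 and 5.97 in KO cells with LIF, 6.85 and 7.13 in J1 cells without LIF, and 6.37 and 7.82 in J1 cells with LIF. All KO arrays lay below all J1 arrays, the closest pair by little. The difference was -0.98 (SE 0.36), adjusted p 0.925 by limma, and it was -0.62 without the second array of J1 cells with LIF. Map2 1434194_at overlapped, with -0.54 (SE 0.39). The near-background probe sets 1440699_at and 1421327_at gave 0.44 (SE 0.65) and 0.16 (SE 0.95).

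Dcx was near background at all 4 probe sets, and its largest value concerned LIF rather than Rex-1. Dcx 1418139_at read 4.26 and 4.62 in KO cells without LIF, 6.16 and 7.49 in KO cells with LIF, 4.76 and 6.22 in J1 cells without LIF, and 5.90 and 6.31 in J1 cells with LIF. The KO arrays without LIF were the lowest of all 8, and the J1 conditions overlapped. The LIF difference was -2.38 (SE 0.64) in KO cells and -0.62 (SE 0.64) in J1 cells, and averaged -1.50 (SE 0.45), adjusted p 1 by limma in each. After 50 intensity units were added before the log, the averaged LIF difference was -0.75. The interaction of -1.76 (SE 0.91) had an adjusted p of 1 by limma. Dcx 1418140_at read 5.45, 6.29, 6.33 and 5.57 on the KO arrays, against 5.10, 4.89, 5.36 and 5.40 on the J1 arrays. All KO arrays were above all J1 arrays, with a difference of 0.72 (SE 0.28), adjusted p 0.941 by limma. The other 2 Dcx probe sets gave 1.04 (SE 0.99) and 0.58 (SE 0.79). The genotype difference of Dcx 1418139_at was -0.17 (SE 0.45), and 0.018 with 50 intensity units added before the log. The 4 thus disagreed in sign only through a value smaller than its SE.

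**Figure D2:**
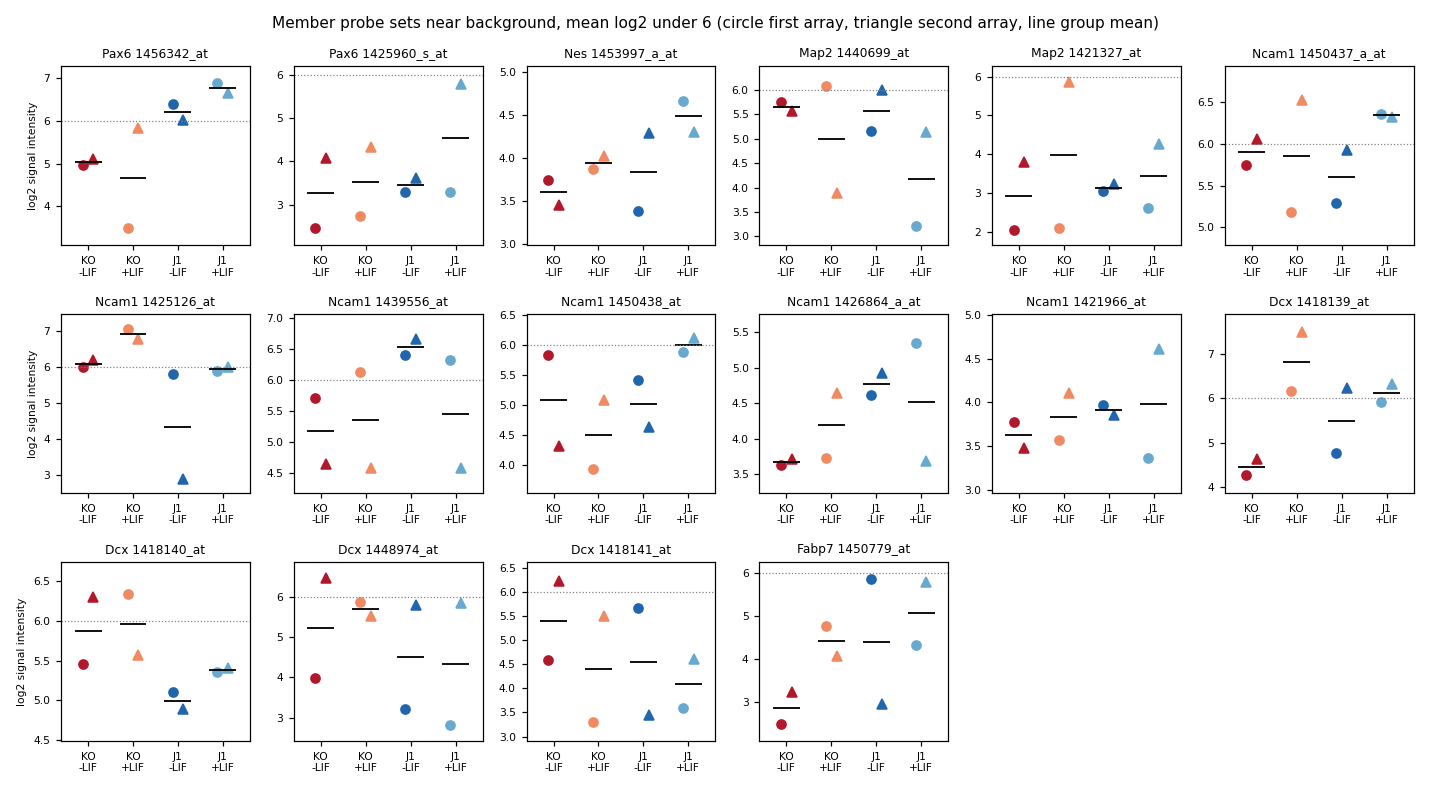
Log2 intensity of the 16 member probe sets with a mean under 6, per array, in KO cells without LIF, KO cells with LIF, J1 cells without LIF and J1 cells with LIF (2 arrays each). Arrays of 1 group often lie more than 1 log2 unit apart, as for Dcx 1448974_at at 3.99 and 6.46 in KO cells without LIF.

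Ncam1 had 7 probe sets, 6 of them near background. Ncam1 1426865_a_at, the brightest, read 6.63 and 5.90 in KO cells without LIF, 6.83 and 6.75 in KO cells with LIF, 7.15 and 6.99 in J1 cells without LIF, and 7.41 and 7.09 in J1 cells with LIF. All KO arrays lay below all J1 arrays. The difference was -0.63 (SE 0.22, 95% interval -1.19 to -0.08), adjusted p 0.913 by limma, and it was -0.55 between first arrays and -0.71 between second arrays. Ncam1 1425126_at went the other way: it read 5.99, 6.19, 7.07 and 6.77 on the KO arrays, against 5.79, 2.88, 5.90 and 5.99 on the J1 arrays. The lowest KO array and the highest J1 array were equal to the digits printed, so the separation of the lines was negligible. Its difference of 1.36 (SE 0.63), adjusted p 0.978 by limma, was 0.64 without the second array of J1 cells without LIF. The other 5 were lower in KO cells by -0.73 to -0.09 on average.

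**Figure D3:**
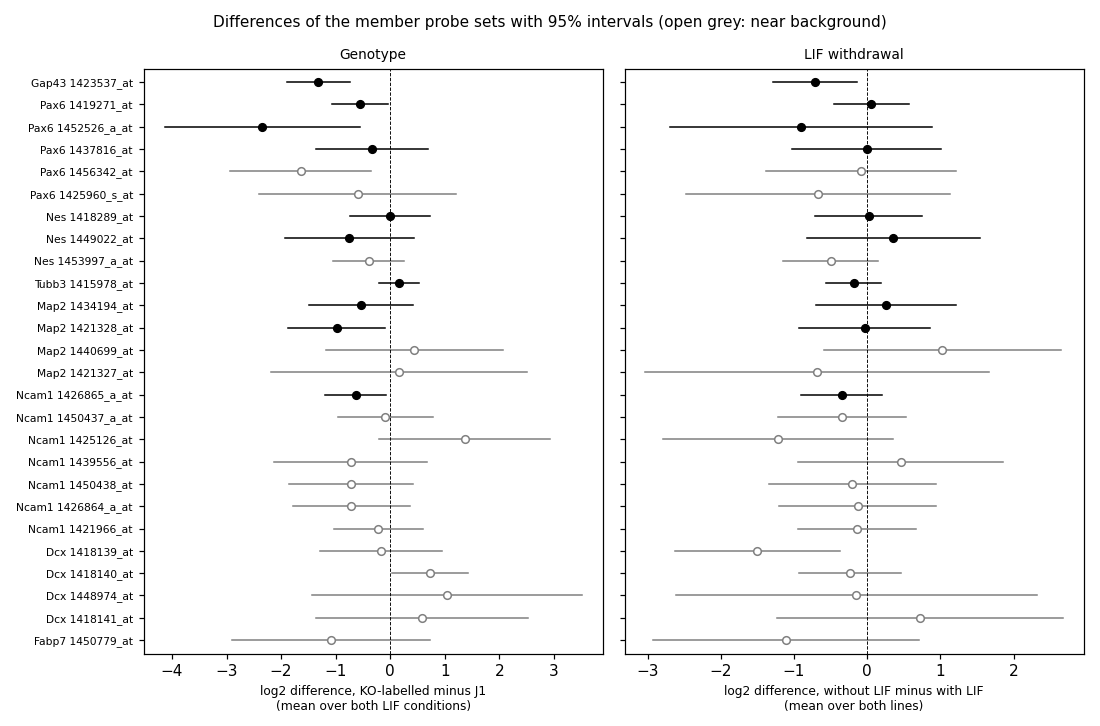
Averaged genotype difference (KO minus J1, log2, left) and averaged LIF difference (without minus with LIF, right) of each of the 26 member probe sets, with 95% intervals from limma and open grey points for probe sets near background. Genotype differences run from -2.34 at Pax6 1452526_a_at to 1.36 at Ncam1 1425126_at, and none of the 26 passed in either panel at an adjusted p under 0.05.

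Taking the members together, 18 of the 26 probe sets were lower in KO cells and 8 were higher, with a median difference of -0.46 against 0.02 over all 43439 tested. limma called 0 of the 26 for genotype, and 0% of all probe sets, and the smallest adjusted p was 0.652 among members and 0.265 over all. At an unadjusted p under 0.05, 7 of the 26 passed, against 5.27% of all: Gap43, 3 of Pax6, 1 of Map2 and 1 of Ncam1, all lower, and Dcx 1418140_at, higher. All 4 KO arrays lay below all 4 J1 arrays for 6 of the 26 (23.1%), against 1.74% of all tested, and above them for 2 (7.7%), against 2.1%, of which Ncam1 1425126_at did so by a negligible gap. The 6 belong to 4 genes, so they are not separate genes, and 1 of the 6 was near background. The members were chosen with earlier results of these data known, so the shares here and below are descriptions and not independent support.

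The contrasts within a condition had the same balance of signs. With LIF, 18 were lower and 8 higher in KO cells, 0 passed (0% of all), and 2 reached an unadjusted p under 0.05, against 5.02% of all. Without LIF the split was again 18 and 8, with 0 called (0% of all) and 4 at an unadjusted p under 0.05, against 3.68%. These contrasts and their average share arrays and are not separate evidence.

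For LIF withdrawal averaged over the lines, 19 of the 26 were lower without LIF and 7 higher, with a median of -0.17 against -0.01 over all, 0 called (0% of all) and 2 at an unadjusted p under 0.05 (Gap43 and Dcx 1418139_at), against 4.02% of all. In KO cells 18 were lower and 8 higher, with 0 called and 1 at an unadjusted p under 0.05, against 4.07%. In J1 cells 15 were lower and 11 higher, with 0 called and 0 at an unadjusted p under 0.05, against 3.61%. The interaction of genotype and LIF had 15 negative and 11 positive values, 0 called by limma and 0 at an unadjusted p under 0.05, against 3.55%. For 0 of the 26 were all 4 arrays without LIF below, or all 4 above, those with LIF, against 1.33% and 1.02% of all. Inside both lines, 3 of the 26 (11.5%) were lower without LIF on every array, against 2.59%, and 0 were higher, against 2.2%. The 3 were Gap43, Nes 1453997_a_at and Ncam1 1425126_at, and the last 2 were near background.

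**Figure D4:**
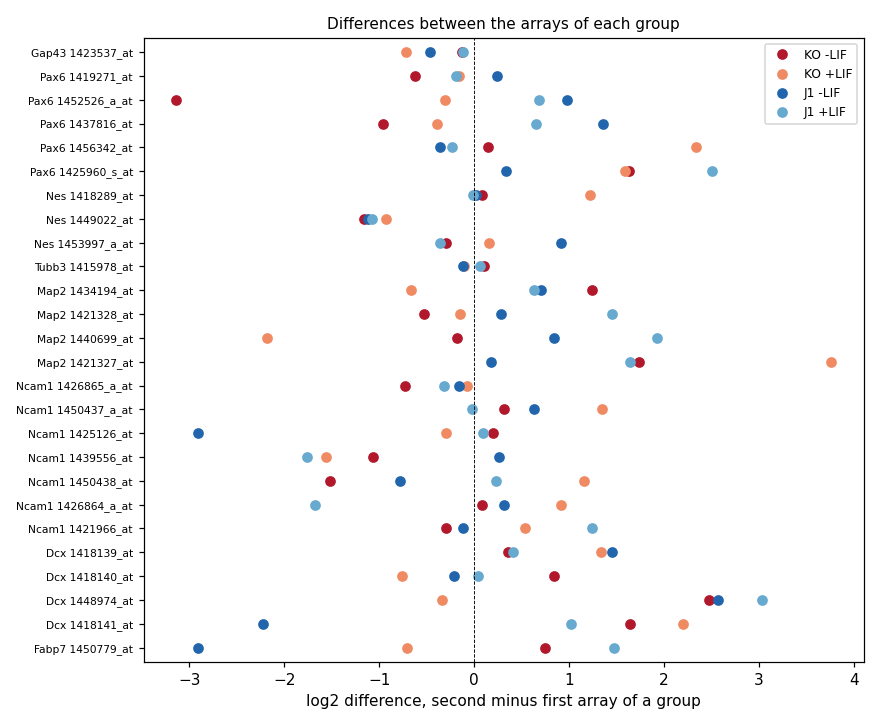
Log2 difference between the second and the first array of each group, for the 26 member probe sets, in KO cells without LIF, KO cells with LIF, J1 cells without LIF and J1 cells with LIF. Tubb3 lies close to 0 in all 4 groups, Nes 1449022_at lies near -1 in all 4, and Pax6 1452526_a_at reaches below -3 in KO cells without LIF.

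Other neural genes were taken from 9 lists with 120 measured genes, each read at its brightest probe set. Of these, 66 were lower and 54 higher in KO cells, with a median of -0.04 against 0.01 over all genes, 0 were called by limma, and 8 (6.7%) had an unadjusted p under 0.05, all lower, a share near the 5.27% of all probe sets. For LIF withdrawal averaged over the lines, 70 were lower and 50 higher without LIF, 0 were called by limma, and 8 (6.7%) had an unadjusted p under 0.05, 5 lower and 3 higher, against 4.02% of all probe sets. Of 26 transcription factors of the neural plate and progenitors, 17 were lower and 9 higher, with a median of -0.17. Pou3f3, a POU-domain factor, differed by -1.40 (SE 0.68), and Pax3, a factor of the dorsal neural tube and neural crest, by 1.29 (SE 0.74). The neural plate factor Sox1 was near background, with a mean of 5.41. Of 19 proneural factors, 12 were lower and 7 higher, with a median of -0.16, and Myt1l, a neuronal zinc-finger factor, differed by 1.07 (SE 0.69) and Insm1, a zinc-finger factor of neural and endocrine progenitors, by -0.77 (SE 0.82).

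Of 23 genes of the neuronal cytoskeleton and neuronal RNA-binding proteins, 15 were lower and 8 higher, with a median of -0.11. Among them the splicing regulator Nova1 differed by 0.90 (SE 0.79) and the neurofilament gene Nefm by -0.87 (SE 1.10). Growth cone and membrane-associated substrates, 7 in number, had 4 lower and 3 higher, with a median of -0.11, and Marcks, an actin-binding kinase substrate, differed by -0.79 (SE 0.40) and Gprin1 by -0.58 (SE 0.36). Neural adhesion genes had 2 lower and 9 higher of 11, with a median of 0.19, and included N-cadherin (Cdh2) at -0.62 (SE 0.68) and the polysialyltransferase St8sia4, whose product modifies NCAM, at 0.47 (SE 0.28). Synaptic genes had 3 lower and 8 higher of 11, with a median of 0.20, and Stx1a (syntaxin) differed by 0.49 (SE 0.29) and the glutamate receptor gene Gria2 by 0.43 (SE 0.31).

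Radial glia and glia genes were split 6 and 6 of 12, with a median of 0.08. The glutamate transporter gene Slc1a3 differed by 1.16 (SE 0.78) and Prom1, a membrane glycoprotein of stem cells, by -0.79 (SE 0.24), adjusted p 0.892 by limma. The 5 other doublecortin-family genes had 3 lower and 2 higher, with Dclk2 at -0.80 (SE 0.59) and Rp1, a photoreceptor gene, at 0.54 (SE 0.28). Of 6 repressors of neural genes, 4 were lower and 2 higher. Rest, which silences neuronal genes outside neurons, had a mean log2 of 12.1 and differed by -0.22 (SE 0.18), and the deacetylase gene Hdac2 by 0.21 (SE 0.22).

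**Figure D5:**
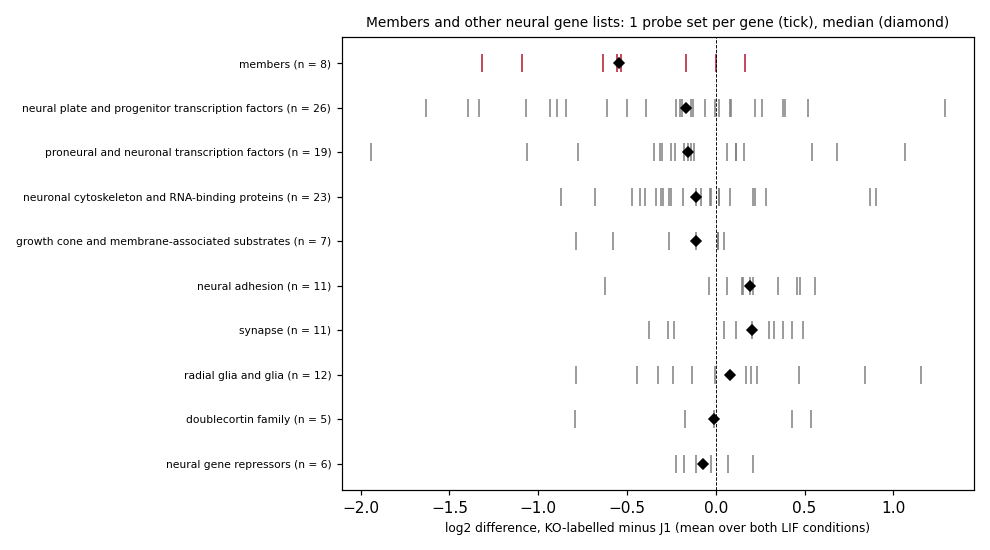
Averaged genotype difference (KO minus J1, log2) of each measured gene at its brightest probe set, for the 8 member genes and 9 lists of other neural genes (tick, 1 gene; diamond, median of the list). The medians run from -0.55 for the members to 0.20 for synaptic genes, and no gene in these lists passed at an adjusted p under 0.05.

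Some markers of other lineages were higher or lower in KO cells on average, with 0 called by limma. Their part in the member values was not tested. Extraembryonic endoderm markers had 2 lower and 7 higher of 9 in KO cells, and the mean of the list was 6.01 to 6.72 on KO arrays, against 5.33 to 6.35 on J1 arrays. Among them the endoderm factor gene Sox17 was higher on all KO arrays than on all J1 arrays, as were 2.1% of all tested probe sets. It differed by 0.84 (SE 0.19) with an adjusted p of 0.754 by limma, and Sox7 by 0.80 (SE 0.29). Mesoderm markers had 2 lower and 5 higher of 7, with a list mean of 6.17 to 6.40 on KO arrays, against 5.71 to 6.12 on J1 arrays. The largest mesoderm difference was that of the homeobox gene Mixl1, at 1.91 (SE 0.30), with an adjusted p of 0.652 by limma, and Mesp1 differed by 0.29 (SE 0.26). Mixl1 too was higher on all KO arrays, at 6.64 or more, than on all J1 arrays, at 6.47 or less. The mesoderm markers other than Mixl1 ran from -0.24 to 0.32. Tagln, a smooth muscle and fibroblast actin-binding protein gene, read 9.45, 5.09, 9.26 and 6.75 on the KO arrays, against 12.12, 6.32, 12.24 and 7.47 on the J1 arrays. Krt18, an epithelial keratin gene of the trophoblast list, read 10.51, 9.01, 10.63 and 9.09 on the KO arrays, against 12.76, 9.14, 12.82 and 9.30 on the J1 arrays. Both were higher on the first array than on the second in all 4 groups, and highest on the first J1 arrays. Their differences were -1.90 (SE 1.90) for Tagln and -1.20 (SE 1.16) for Krt18, beside -1.11 (SE 1.09) for the collagen gene Col1a1 and 0.68 (SE 0.31) for Eomes. In the pluripotency list Esrrb differed by 0.35 (SE 0.17) and Nanog by 0.30 (SE 0.23). Trophoblast markers had 5 lower and 4 higher of 9, fibroblast markers 8 lower and 3 higher of 11, and pluripotency markers 3 lower and 6 higher of 9, with 0 called in each of these lists. For LIF withdrawal averaged over the lines, 7 of the 9 pluripotency markers were lower and 2 higher, with 0 called by limma. At an unadjusted p under 0.05 there were 3, all lower, against 4.02% of all probe sets. These were Klf4 at -0.85 (SE 0.24), Tdgf1 at -0.50 (SE 0.16) and Esrrb at -0.42 (SE 0.17). Klf4, Tdgf1 and Esrrb were lower on all 4 arrays without LIF than on all 4 with LIF, against 1.33% of all tested. For Esrrb the gap was small, with at most 11.29 without LIF and at least 11.31 with LIF.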

How the data were processed

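The deposited table holds linear intensity per probe set for 8 arrays, as the authors deposited it. GCRMA is named in the submitters' processing notes, without a version or its place in the steps. No log had been taken and each column had nearly the same trimmed mean (497.4 to 498.0, leaving out 2% at each end), so the step that made the values is not known. No detection call was used. The arrays name no genome build. Of 45101 probe sets, 64 controls were left out. In the platform annotation, which can be old, 34945 of the rest have 1 symbol, 932 several and 9160 none listed. Looked up through Entrez in RefSeq GRCm38.p6, 0 symbols changed.

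Intensities were taken to log2 with no pseudocount. The filter asked for log2 4 or more on at least 2 arrays and passed 43439 probe sets. The model in limma 3.58.1 (R 4.3.3, lmFit and eBayes without a trend) had a mean for each group, used the 8 arrays together and gave 7 contrasts. Benjamini-Hochberg adjustment ran over all kept probe sets, and a call needs an adjusted p under 0.05. SEs and 95% intervals come from this fit, which was tested on simulated data, and the precision is limited by how few arrays there are. The members, lists and rules were chosen with earlier results of these data known. All member probe sets are named. From each list the 2 genes of largest averaged genotype difference with a mean log2 of at least 6 are named, from the brightest probe set per gene. Sox1, Zfp42, Pou5f1, Klf4, Tdgf1 and the further fibroblast markers named beside Gap43 were added after their values were seen. Alternatives covered the filter, normalization, offset, variance prior, threshold, replicate block, probe set per gene and each array left out. The correlation of the deviations of arrays with the same letter ran from 0.05 to 0.20 over the 6 pairs of groups. All 6 were positive and 2 were under 0.1. The main fit left the letter out, but this does not show that it had no effect. Some probe sets, such as Nes 1449022_at, fell from first to second array in all 4 groups. Fits with the letter as a block are among the alternatives. Plots used matplotlib 3.10.9 (Python 3.11.15).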

Additional observations from a re-analysis of the deposited data

How the results depend on the processing

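With 2 arrays per group, 0 member probe sets were called in any of the 7 contrasts, and 129 of 130 recomputed counts stayed there. The exception was the averaged genotype contrast with probe sets of mean log2 at least 8 and a replicate block by the array letter, chosen after seeing the data, which called 1 member, Gap43 (adjusted p 0.023 by limma), among 23 of 14892 probe sets. The replicate block alone gave Gap43 an adjusted p of 0.568 by limma and called 0 members, and the letter is not known to pair the arrays. Over all its alternatives the adjusted p of Gap43 ran from 0.023 to 1 by limma, and its difference from -1.50 to -1.14.

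These differences, each at the brightest probe set of its gene, changed sign. With quantile normalization the Nes LIF difference was -0.013, with median centring the Nes genotype difference was -0.075, and with 50 added the Dcx genotype difference was 0.018. Averaging all probe sets of a gene gave -0.38 for Nes genotype, 0.543 for Dcx genotype, -0.322 for Pax6 LIF and -0.039 for Nes LIF. Leaving out each array in turn gave -0.305 to 0.307 for Nes genotype, -0.533 to 0.195 for Dcx genotype, -0.1 to 0.211 for Pax6 LIF, -0.283 to 0.328 for Nes LIF and -0.055 to 0.568 for Map2 LIF. The cause of these changes was not tested. The other 266 of the recomputed gene values kept their direction and their side of the threshold. Below log2 6, where 16 of the 26 probe sets lie, the median absolute difference between the arrays of a group was 1.23.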
